A study of Mus musculus with 2 samples.

Results

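The 35 genes described here cover the path from glucose to lactate, from entry into the cell to the pyruvate branch point. They are the glucose transporters Slc2a1 and Slc2a3, the enzymes of glycolysis with their isoforms, the bifunctional enzymes Pfkfb1 to Pfkfb4, lactate dehydrogenase, the monocarboxylate transporters Slc16a1, Slc16a3 and Slc16a7, and Pdha1 with the pyruvate dehydrogenase kinases Pdk1 to Pdk4. They were chosen by gene symbol, and all 35 are among the 31053 gene identifiers of the count matrices. The study prepared single cells from the retina at postnatal day 17. The mice were C57BL/6 of wild type genotype. Magnetic beads against CD11b, an integrin found on microglia and their myeloid relatives, were used to select the cells, which were sequenced on the 10x platform. For the control library the retinas of 6 mice were pooled. For the library of oxygen-induced retinopathy (OIR) those of 6 mice were pooled that had been kept in 75% oxygen from day 7 to day 12, together with the nursing mother, and afterwards in room air. Each group is therefore 1 library, and pooling leaves no record of single animals. No difference has a replicate check, no p-value is given, and the 95% intervals given throughout reflect counting error alone.

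Glucose enters cells through facilitative transporters and is trapped by hexokinase. Phosphofructokinase commits it to glycolysis, and the last steps yield ATP and pyruvate, which is either reduced to lactate and exported or oxidised in mitochondria, where pyruvate dehydrogenase kinases close the entry. Photoreceptors are known for high aerobic glycolysis, Müller glia (the radial glia of the retina) for exchanging metabolites with them, and several of these genes are known targets of hypoxia-inducible factors.

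The libraries held 50081145 UMIs (unique molecular identifiers, 1 for each RNA molecule captured) in 10826 control barcodes and 49773742 UMIs in 7283 OIR barcodes, of which 8582 and 6136 cells were kept, with medians of 1654 and 2810 UMIs. Although the labels call the samples retinal microglia, rod markers led 77.5% of control and 58.2% of OIR cells. Classes reaching 200 cells in both libraries were compared, 5 in all, each called "-like" from its marker genes: rod-like (6653 control and 3570 OIR cells), cone-like (326 control and 662 OIR cells), bipolar-like (239 control and 444 OIR cells), Müller glia-like (273 control and 447 OIR cells) and microglia-like (829 control and 580 OIR cells). Of the barcodes kept, 28 occur in both libraries. The 35 genes took no part in forming the clusters. Levels are UMIs of a gene per 1000000 UMIs of the class (CPM), and a gene counts as measured in a class at 20 CPM or more in 1 library. In each pair of levels the control value comes before the OIR value, and a ratio is OIR over control.

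Promoter windows of 33 of the 35 genes are in the RefSeq table of build GRCm38.p6. Those of the hexokinase pair, the lactate dehydrogenase pair and Pgk1 are shown because the results turn on these genes: Hk2, Ldha and Pgk1 were much higher in OIR in some class, and Hk1 and Ldhb are the partner forms of Hk2 and Ldha. They were picked after the values and the matches had been seen, from windows that overlap no annotated exon. Each window is the 250 bases before the first start site in the table, 5′ to 3′ on the gene's strand. Capitals mark ACGTG or GCGTG on either strand (CACGT or CACGC when read from the other), core letters of the hypoxia response element. They lie at chr10:62379909-62380158 (Hk1, minus strand), chr6:82774455-82774704 (Hk2, minus strand), chrX:106186850-106187099 (Pgk1, plus strand), chr7:46845554-46845803 (Ldha, plus strand, inside the annotated span of Ldha) and chr6:142507958-142508207 (Ldhb, minus strand).
Hk1: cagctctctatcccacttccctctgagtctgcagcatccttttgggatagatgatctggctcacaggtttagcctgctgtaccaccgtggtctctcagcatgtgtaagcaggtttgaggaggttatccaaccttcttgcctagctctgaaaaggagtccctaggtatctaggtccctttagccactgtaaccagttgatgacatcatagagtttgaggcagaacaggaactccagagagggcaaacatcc
Hk2: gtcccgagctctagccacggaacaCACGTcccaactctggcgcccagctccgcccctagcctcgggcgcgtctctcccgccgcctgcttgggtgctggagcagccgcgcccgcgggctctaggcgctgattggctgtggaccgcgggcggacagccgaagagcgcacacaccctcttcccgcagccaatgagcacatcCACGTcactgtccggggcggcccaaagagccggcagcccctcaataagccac
Pgk1: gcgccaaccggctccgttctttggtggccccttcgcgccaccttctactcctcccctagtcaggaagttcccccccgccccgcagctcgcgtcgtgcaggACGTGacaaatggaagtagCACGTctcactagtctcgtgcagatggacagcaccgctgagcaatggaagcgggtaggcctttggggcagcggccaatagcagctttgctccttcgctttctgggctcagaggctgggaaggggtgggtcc
Ldha: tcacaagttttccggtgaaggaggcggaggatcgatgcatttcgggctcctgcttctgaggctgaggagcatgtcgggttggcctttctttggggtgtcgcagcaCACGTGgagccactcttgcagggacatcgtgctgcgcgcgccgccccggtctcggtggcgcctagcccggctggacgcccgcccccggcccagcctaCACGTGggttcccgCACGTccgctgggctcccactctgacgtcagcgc
Ldhb: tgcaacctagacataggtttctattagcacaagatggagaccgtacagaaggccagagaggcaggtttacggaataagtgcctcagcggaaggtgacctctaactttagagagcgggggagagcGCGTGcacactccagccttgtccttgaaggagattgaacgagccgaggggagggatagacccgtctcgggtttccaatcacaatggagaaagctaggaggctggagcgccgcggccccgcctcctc

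The Ldha window holds 5 matches, of which some overlap because CACGTG reads as a match on both strands. The Hk2 and Pgk1 windows hold 2 each, the Ldhb window holds 1 and the Hk1 window shown holds 0. Hk1 has 2 windows, and the 1 not shown here does hold a match. Of the 52 windows of these genes, 38 (73.1%) hold at least 1 match, against 38.6% of all 32851 windows of the same length in the table. The 5 genes without a match in any window were Bpgm, Eno2, Gpi1, Pgam2 and Tpi1. A match describes letters only, and binding was not measured.

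In OIR the 35 genes differed by cell class. In microglia-like cells 17 of 24 measured genes were at least 1.5-fold higher and 1 was lower, where 11.0% of all measured genes of the class were higher and 18.3% lower. In bipolar-like cells 12 of 27 were higher and 1 lower (4.48% and 6.40% of all genes), and in Müller glia-like cells 10 of 26 were higher and 4 lower (7.10% and 11.6%). In rod-like cells 1 of 25 was higher and 0 were lower (4.40% and 1.29%), and in cone-like cells 0 of 25 were higher and 0 lower (2.55% and 1.62%). The median log2 ratio was 1.46 in microglia-like, 0.55 in bipolar-like, 0.42 in Müller glia-like, 0.07 in cone-like and -0.02 in rod-like cells. Over all measured genes it lay between -0.12 and 0.06 in these classes. The microglia-like and Müller glia-like values depend on which clusters are counted, as described at the end. The cone-like and Müller glia-like values change when rod RNA is subtracted, also described there. Levels and ratios include rod RNA unless stated. Of the 35 genes, 18 were measured in all 5 classes, and 0 were at least 1.5-fold higher in all 5. In at least 1 of the 5 classes 22 of 32 measured genes were higher, against 15.2% of all genes measured in at least 1, and 5 (Pfkm, Pfkfb4, Aldoc, Ldhb and Slc16a1) were lower, against 23.0%. The other 3 (Pfkfb1, Pgam2 and Pdk4) were measured in none of the 5.

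**Figure D1:**
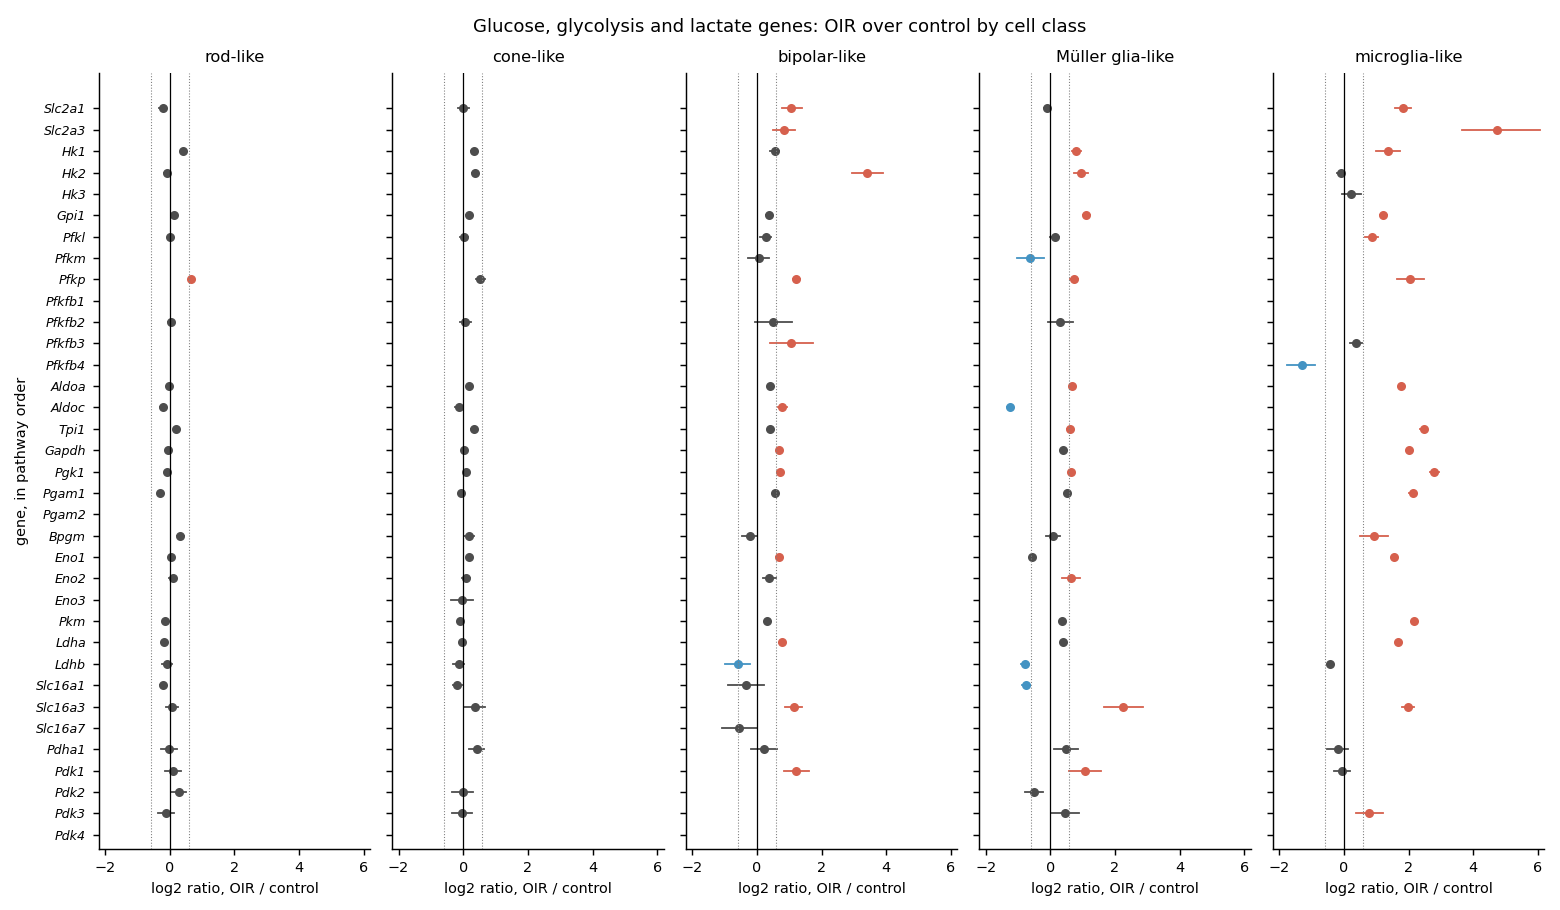
Log2 ratio of OIR over control (x axis) for each measured gene, in pathway order (y axis), in the 5 cell classes. Points are ratios of class sums, bars are 95% counting intervals, dotted lines mark 1.5-fold, red is at least 1.5-fold higher and blue at least 1.5-fold lower; 17 microglia-like points lie to the right of the upper line, and 1 rod-like point and 0 cone-like points do.

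The summed share of the 35 genes among all UMIs of a class weights the abundant enzymes. In microglia-like cells it was 0.396% in control and 1.18% in OIR. In bipolar-like cells it was 1.45% in control and 2.17% in OIR, and in Müller glia-like cells 1.64% in control and 1.75% in OIR. In rod-like cells it was 1.41% in control and 1.36% in OIR, and in cone-like cells 1.31% in control and 1.37% in OIR. It differed most between the libraries in microglia-like and bipolar-like cells, while in Müller glia-like cells, with 10 genes higher and 4 lower, it was nearly as level as in cone-like cells. Microglia-like cells had the smallest share of the 5 classes in both libraries.

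Glucose transporters were higher in OIR in microglia-like and bipolar-like cells. Slc2a1, which encodes GLUT1, the widespread transporter of endothelium and barrier tissues, was at 27.2 and 95.8 CPM in control and OIR microglia-like cells, a ratio of 3.53 (log2 1.82, interval 1.57 to 2.07). In bipolar-like cells it was at 48.1 and 101 CPM (log2 1.07, 0.76 to 1.38). These were the classes with the lowest Slc2a1 in control. Müller glia-like cells had the most, at 343 and 319.7 CPM (log2 -0.10, -0.20 to 0.00), and rod-like (111 and 95.5 CPM) and cone-like (86.9 and 87.1 CPM) cells lay between. All 3 of these classes stayed within 1.5-fold. The 38 endothelial-like control cells had 1895 CPM of Slc2a1, above all 5 classes, and 1 such cell in OIR allowed no comparison. Pigment epithelium-like cells (27 control and 42 OIR cells) had 1317 and 1052 CPM. Slc2a3, which encodes the neuronal transporter GLUT3, was at 1.06 and 28.3 CPM in microglia-like cells, from 7 and 160 UMIs (log2 4.73, 3.66 to 6.07). Of the OIR UMIs, 154 came from 1 cluster, number 14, described below. Bipolar-like cells had the most Slc2a3 of the 5 classes, at 43.8 and 78.3 CPM (log2 0.84, 0.51 to 1.17), and the other 3 classes stayed under 20 CPM.

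Among the 5 classes, Hk2 in bipolar-like cells had the largest ratio of any measured gene of the 35 outside microglia-like cells. Hk2, the inducible hexokinase that binds mitochondria, was at 16.6 and 175 CPM there, from 39 and 717 UMIs, a ratio of 10.6 (log2 3.40, 2.94 to 3.91). Its share of hexokinase UMIs was 6.98% in control and 35.1% in OIR. The control level was the lowest of the 5 classes, and the OIR level lay between those of rod-like and microglia-like cells. Each of the 4 bipolar-like clusters with at least 20 cells in each library showed it. Cluster 20, led by Trpm1 and Pcp2, had 21.7 and 195 CPM, and cluster 33 had 13.1 and 172 CPM. Cluster 32, led by Vsx1, had 5.81 and 139.7 CPM, and cluster 21 had 20.7 and 201 CPM. In the smaller cluster 27 the levels were 40.2 and 76.9 CPM, with an interval of the log2 ratio from -0.61 to 2.51. With each cell thinned to 1500 UMIs, 3.35% of control and 20.4% of OIR bipolar-like cells had a Hk2 UMI (11.3% and 57.9% unthinned, at median depths of 7250 and 6301 UMIs). Rod RNA was estimated at 9.46% in control and 10.3% in OIR of this class, and 18.7% of control and 19.6% of OIR rod-like cells had a Hk2 UMI at the same thinned depth.

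In Müller glia-like cells Hk2 was at 62.8 and 121 CPM (log2 0.95, 0.73 to 1.17). It was within 1.5-fold in microglia-like (199 and 185 CPM), rod-like (146 and 138 CPM) and cone-like (202 and 259 CPM) cells. Hk1, the constitutive form, was higher in microglia-like cells, at 14.6 and 37.3 CPM (log2 1.36, 1.0 to 1.72), and in Müller glia-like cells, at 151 and 263 CPM (log2 0.80, 0.66 to 0.95). In rod-like cells it was at 289 and 385 CPM (log2 0.41), in bipolar-like cells at 221 and 324 CPM (log2 0.55) and in cone-like cells at 279 and 349 CPM (log2 0.32), all under 1.5-fold. Hk2 was the leading form in microglia-like cells, at 81.6% of hexokinase UMIs in control, and Hk1 in the other 4 classes. Hk3, the myeloid form, was measured among the 5 classes only in microglia-like cells, at 30.5 and 35.9 CPM (log2 0.23). Of the smaller myeloid classes, border macrophage-like cells had 17.1 and 24.6 CPM of Hk3, from 4 and 43 UMIs. Neutrophil-like cells (10 control and 20 OIR cells) had 39.6 and 45.1 CPM of it, from 4 and 14 UMIs. Gpi1, which converts glucose 6-phosphate to fructose 6-phosphate, was higher in microglia-like cells (181 and 423 CPM, log2 1.22) and in Müller glia-like cells (251 and 538 CPM, log2 1.10). It was within 1.5-fold in bipolar-like (724 and 941 CPM), rod-like (361 and 393 CPM) and cone-like (338 and 379 CPM) cells. Rod RNA, estimated below for the Müller glia-like class, was not taken out of its Hk1, Hk2 and Gpi1 values or its leading form. Rod-like cells had more Hk1 and Hk2 than Müller glia-like cells in both libraries, but less Gpi1 in OIR.

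Pfkp, the platelet form of phosphofructokinase, was at least 1.5-fold higher in 4 of the 5 classes, more than any other of these genes. In rod-like cells it was at 142 and 224 CPM (log2 0.66, 0.58 to 0.75) and was the only one of the 35 genes past 1.5-fold. In bipolar-like cells it was at 374 and 870.4 CPM (log2 1.22, 1.11 to 1.33), and in microglia-like cells at 9.57 and 39.8 CPM (log2 2.06, 1.65 to 2.48). Müller glia-like cells had 203 and 338 CPM (log2 0.74, 0.61 to 0.86), a difference that was gone (log2 -0.05) without the 1 cluster of that class that was nearly all OIR. In cone-like cells it was at 90.5 and 130.4 CPM (log2 0.53, 0.38 to 0.68), short of 1.5-fold. The share of Pfkp among phosphofructokinase UMIs was 44.8% in control and 55.8% in OIR in rod-like cells and 62.4% in control and 76.8% in OIR in bipolar-like cells. Pfkl, the liver form, was higher in microglia-like cells (54.8 and 99.2 CPM, log2 0.86) and within 1.5-fold elsewhere. Pfkm, the muscle form, was measured in bipolar-like cells, at 51.9 and 53.8 CPM, and in Müller glia-like cells, where it was lower, at 24.3 and 15.8 CPM (log2 -0.62, -1.04 to -0.20).

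The bifunctional enzymes set the level of fructose 2,6-bisphosphate, an activator of phosphofructokinase. Pfkfb2 led this family in rod-like cells, with 89.2% of its UMIs in control, and was at 116 and 119.7 CPM (log2 0.04). A near-identical transcript counted separately, Gm29427, held 409 UMIs against 6083 for Pfkfb2, so that level is uncertain. Pfkfb3, the inducible form, led in microglia-like cells, with 63.8% of the family in control, at 62.1 and 80.5 CPM (log2 0.37). It was higher in bipolar-like cells, from a low level, at 10.6 and 22.0 CPM (log2 1.05, 0.40 to 1.75). Pfkfb4 was the only measured gene of the 35 that was at least 1.5-fold lower in microglia-like cells, at 27.6 and 11.1 CPM (log2 -1.31, -1.75 to -0.89).

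From aldolase to pyruvate kinase, the leading form of every step was higher in microglia-like cells. Pgk1, phosphoglycerate kinase, was at 88.7 and 618 CPM, a ratio of 6.97 (log2 2.80, 2.67 to 2.93). Triose phosphate isomerase (Tpi1) was at 119 and 658 CPM (log2 2.47), and pyruvate kinase (Pkm) at 299.6 and 1353 CPM (log2 2.18). Each of these lay below the rod-like level in control, and Pgk1 and Tpi1 lay above it in OIR. Phosphoglycerate mutase (Pgam1) was at 158 and 689 CPM (log2 2.12), and Gapdh, glyceraldehyde 3-phosphate dehydrogenase, at 921 and 3717 CPM (log2 2.01). Aldolase A (Aldoa) was at 372 and 1266 CPM (log2 1.77), and enolase 1 (Eno1) at 243 and 719 CPM (log2 1.56). The same genes differed less in bipolar-like cells. Pgk1 was at 535 and 874 CPM (log2 0.71), Gapdh at 3783 and 6057 CPM (log2 0.68) and Eno1 at 852 and 1365 CPM (log2 0.68), while Aldoa, Tpi1, Pgam1 and Pkm were higher by less than 1.5-fold. In rod-like cells Pgk1 was at 465 and 441 CPM, Gapdh at 2947 and 2808 CPM and Pkm at 1767 and 1599 CPM. Gapdh, often taken as a reference gene, thus had log2 ratios from -0.07 in rod-like to 2.01 in microglia-like cells. Bpgm, which makes 2,3-bisphosphoglycerate in red blood cells, was at 11.2 and 21.4 CPM (log2 0.93) in microglia-like cells. Erythroid markers summed to 5.77 CPM in control and 5578 CPM in OIR in that class, and their part in the Bpgm value was not tested.

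Aldolase and enolase set Müller glia-like cells apart. Aldoc, the brain form of aldolase, was at 988 and 412 CPM (log2 -1.26, -1.33 to -1.19), while Aldoa was at 1376 and 2201 CPM (log2 0.68, 0.63 to 0.73). The share of Aldoc among aldolase UMIs was 41.8% in control and 15.8% in OIR. Within single clusters Aldoc was also lower, at 1476 and 1247 CPM in cluster 31 (log2 -0.24) and 530.1 and 343 CPM in cluster 34 (log2 -0.63), so by less than in the class. In bipolar-like cells Aldoc went the other way, at 216 and 373 CPM (log2 0.79, 0.64 to 0.94), and it was within 1.5-fold in rod-like and cone-like cells. Eno1 in Müller glia-like cells was at 5564 and 3719 CPM (log2 -0.58), just short of 1.5-fold lower, and still the highest Eno1 of the 5 classes. Eno2, the neuronal form, was at 41.5 and 63.8 CPM (log2 0.62) there. Eno3, the muscle form, was measured among the 5 classes only in cone-like cells, at 20.9 and 20.4 CPM. In the small monocyte-like class (12 control and 32 OIR cells) it was at 120.3 and 61.8 CPM, from 15 and 21 UMIs.

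**Figure D2:**
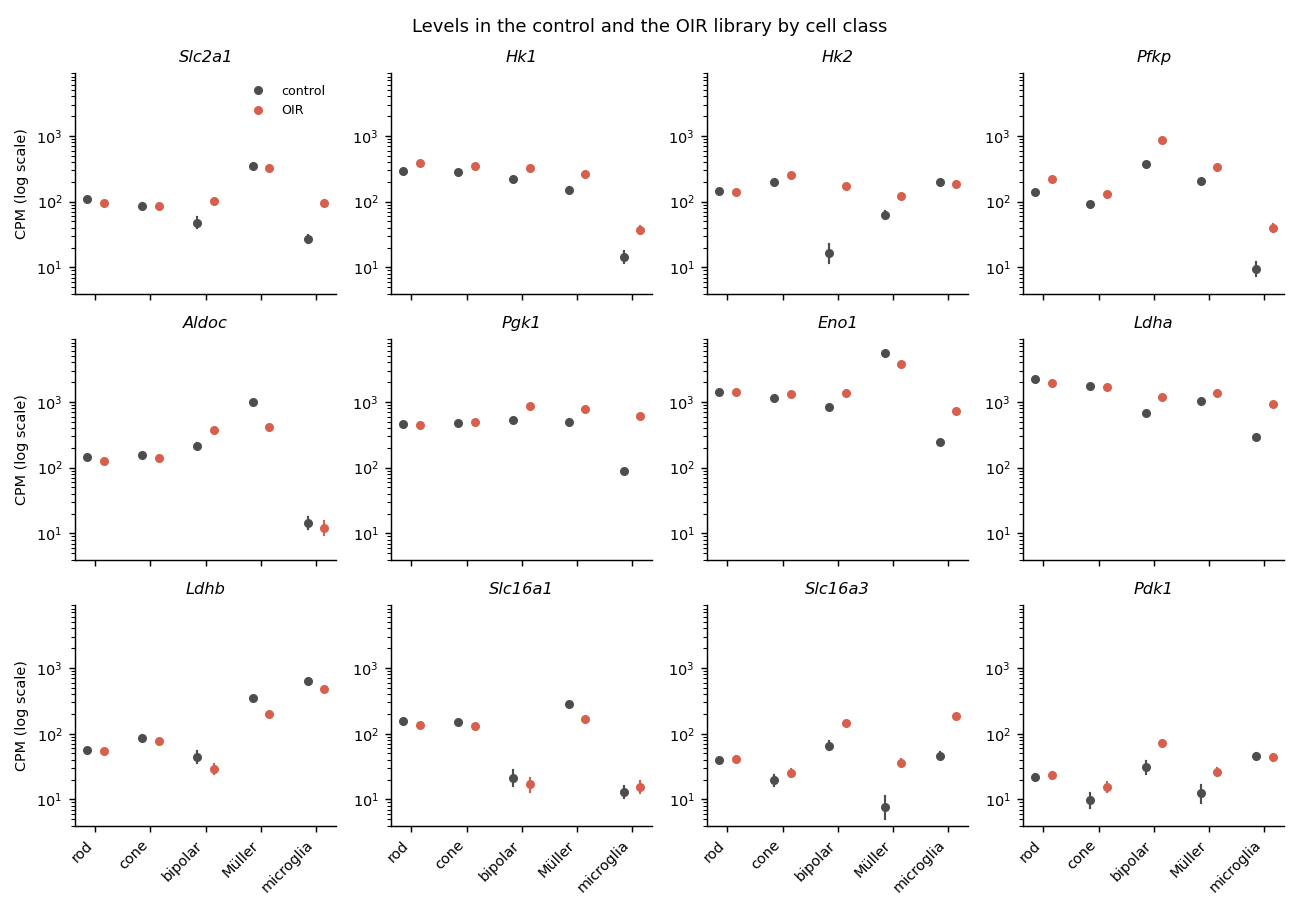
CPM of 12 genes (log axis) in control (grey) and OIR (red) for the 5 classes, with 95% counting intervals. Hk2 differs most in bipolar-like cells (16.6 and 175 CPM), and Aldoc is lower in OIR in Müller glia-like cells (988 and 412 CPM) and higher in bipolar-like cells (216 and 373 CPM).

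The 2 forms of lactate dehydrogenase differed in opposite directions in 3 classes. Ldha, the form that favours lactate, was at 294 and 937 CPM (log2 1.67, 1.60 to 1.75) in microglia-like cells, and Ldhb, the form that favours pyruvate, at 643 and 477 CPM (log2 -0.43, -0.50 to -0.36). Ldha made up 31.4% in control and 66.3% in OIR of their sum, so the leading form differed between the libraries. In Müller glia-like cells Ldha was at 1025 and 1348 CPM (log2 0.40) and Ldhb at 349.9 and 203 CPM (log2 -0.79, -0.90 to -0.68). In bipolar-like cells Ldha was at 690.1 and 1189 CPM (log2 0.79, 0.70 to 0.87) and Ldhb at 44.3 and 29.4 CPM (log2 -0.59, -0.98 to -0.20). Ldhb was at least 1.5-fold lower in both. Rod RNA, estimated below for the Müller glia-like class, was not taken out of these levels or ratios. Rod-like cells had the most Ldha of the 5 classes, at 2200.2 and 1943 CPM, and Ldha was 97.5% in control and 97.3% in OIR of the sum there.

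The monocarboxylate transporters carry lactate and pyruvate across the membrane. Slc16a3, which encodes MCT4, the form of highly glycolytic cells, was at 46.3 and 184 CPM (log2 1.99, 1.81 to 2.18) in microglia-like cells and at 66.0 and 145 CPM (log2 1.13, 0.88 to 1.40) in bipolar-like cells. In Müller glia-like cells it was at 7.70 and 36.1 CPM (log2 2.23, 1.65 to 2.87), from 26 and 274 UMIs. Microglia markers summed to 2131 CPM in control and 1803 CPM in OIR in that class. Rod-like cells had 39.1 and 41.3 CPM of Slc16a3. Rod RNA, estimated below for the Müller glia-like class, was not taken out of this value. Slc16a1, which encodes the widespread MCT1, was lower in Müller glia-like cells, at 281 and 168 CPM (log2 -0.74, -0.87 to -0.62), and within 1.5-fold in rod-like (158 and 137 CPM) and cone-like (149 and 131 CPM) cells. The share of Slc16a3 among the UMIs of the 3 transporters was 63.9% in control and 88.9% in OIR in microglia-like and 59.4% in control and 81.3% in OIR in bipolar-like cells, against 19.9% in control and 23.2% in OIR in rod-like cells. Slc16a7, which encodes MCT2, was measured among the 5 classes only in bipolar-like cells, at 23.8 and 16.4 CPM (log2 -0.54).

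**Figure D3:**
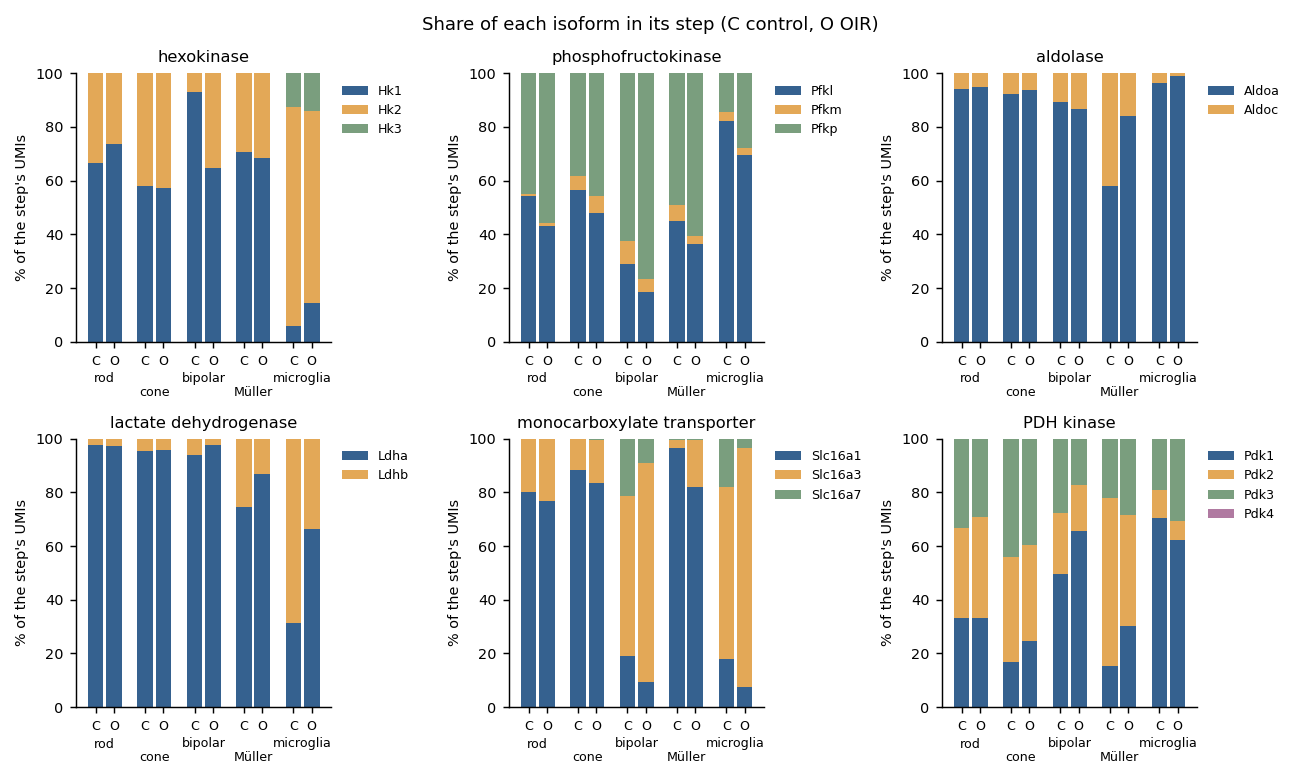
Stacked bars give the percent of each isoform among the UMIs of its step (y axis) in control (C) and OIR (O) for the 5 classes. Hk2 is 6.98% in control and 35.1% in OIR in bipolar-like cells, Aldoc 41.8% in control and 15.8% in OIR in Müller glia-like cells and Ldha 31.4% in control and 66.3% in OIR in microglia-like cells.

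At the pyruvate branch point, Pdha1, a subunit of pyruvate dehydrogenase, was within 1.5-fold in all 5 classes. Pdk1, a kinase that shuts this enzyme off, was higher in bipolar-like cells, at 30.7 and 71.5 CPM (log2 1.22, 0.84 to 1.61), and in Müller glia-like cells, at 12.4 and 26.0 CPM (log2 1.06, 0.58 to 1.58). In microglia-like cells it was at 45.6 and 43.5 CPM (log2 -0.07, -0.32 to 0.18), although Pgk1, Ldha and Slc2a1 were higher in the same cells. Pdk3 was higher in microglia-like cells (12.5 and 21.4 CPM, log2 0.78), and Pdk2 was within 1.5-fold wherever it was measured.

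In the photoreceptor classes all measured genes of the 35 lay within 1.5-fold, except Pfkp in rod-like cells. Rod RNA was not taken out of the cone-like levels given here. With it subtracted, some cone-like genes passed 1.5-fold, as given at the end. Next furthest from level in rod-like cells were Hk1 (log2 0.41) and Bpgm (0.32). The log2 ratios furthest from level in cone-like cells were those of Pfkp (0.53), Pdha1 (0.41) and Hk2 (0.36). Rod-like cells had 171 and 173 CPM of Pfkl and cone-like cells 134 and 137 CPM, with Pfkfb2 at 68.7 and 71.9 CPM in cone-like cells. Rod-like cells had 2339 and 2303 CPM of Aldoa and cone-like cells 1835 and 2073 CPM. The levels of Aldoc were 147 and 126 CPM in the rod-like class and 155 and 141 CPM in the cone-like class. Rod-like cells had 279 and 321 CPM of Tpi1 and cone-like cells 306 and 381 CPM. Pfkl, Aldoa, Aldoc and Tpi1 had log2 ratios between -0.22 and 0.32. In cone-like cells Gapdh was at 3133 and 3166 CPM, Pgk1 at 472 and 503 CPM and Pkm at 1764 and 1659.5 CPM. Rod-like cells had 671 and 547 CPM of Pgam1 and cone-like cells 697 and 662 CPM. The levels of Bpgm were 87.0 and 109 CPM in the rod-like class and 97.8 and 110.5 CPM in the cone-like class. Rod-like cells had 1395 and 1424 CPM of Eno1 and cone-like cells 1158 and 1310.2 CPM. The levels of Eno2 were 109.9 and 117 CPM in the rod-like class and 152 and 162 CPM in the cone-like class. The pyruvate and lactate steps also stayed within 1.5-fold. In cone-like cells Ldha was at 1754 and 1691 CPM, Ldhb at 86.9 and 78.4 CPM and Slc16a3 at 19.7 and 25.1 CPM. In rod-like cells Ldhb was at 57.5 and 54.1 CPM, Slc16a3 at 39.1 and 41.3 CPM, Pdk1 at 21.6 and 23.1 CPM and Pdk2 at 21.9 and 26.3 CPM.

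The remaining values of bipolar-like and Müller glia-like cells lay within 1.5-fold unless stated. In bipolar-like cells Aldoa was at 1823 and 2422 CPM, Tpi1 at 1249 and 1656 CPM, Pgam1 at 1619 and 2384 CPM and Pkm at 1585 and 1984 CPM, each higher in OIR. Pfkl was at 173 and 209.5 CPM there, Eno2 at 131 and 171 CPM, Bpgm at 103 and 88.4 CPM and Slc16a1 at 21.3 and 16.9 CPM. Of these, Bpgm and Slc16a1 were lower in OIR. In Müller glia-like cells Gapdh was at 2669 and 3509 CPM, Pgam1 at 598 and 859.5 CPM and Pkm at 1139 and 1461 CPM. Tpi1 (439 and 661 CPM, log2 0.59) and Pgk1 (502 and 782 CPM, log2 0.64) were just past 1.5-fold there, Pfkl was at 185 and 203 CPM and Bpgm at 76.1 and 80.2 CPM. Pdk2, the leading kinase of control Müller glia-like cells, was at 50.1 and 35.2 CPM (log2 -0.51, -0.79 to -0.22).

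Lists of genes from neighbouring pathways were counted in the same way in microglia-like cells, with no test of a difference between lists. Of all measured genes of this class, 11.0% were higher and 18.3% lower. All 16 listed genes of the tricarboxylic acid cycle were measured and 0 passed 1.5-fold in either direction, with a median of 0.22. The same held for 4 measured of 10 genes of pyruvate entry and the pyruvate dehydrogenase complex and for 2 of 6 of gluconeogenesis. Of 7 measured glycogen genes 5 were higher and 0 lower, with a median of 1.07, among them the phosphoglucomutase Pgm2 at 12.3 and 61.4 CPM. Of 6 measured genes of the pentose phosphate pathway 3 were higher and 1 lower, with Pgd at 101 and 179 CPM, and of 5 genes of cytosolic NADH shuttles 2 were higher and 1 lower, with Got1 at 30.5 and 63.8 CPM. Bsg, the chaperone that takes lactate transporters to the membrane and the 1 measured gene of its list, was at 425 and 1067 CPM. All 3 measured genes among other hexose transporters and tissue-restricted isoforms were lower, with the fructose transporter Slc2a5 at 108 and 36.4 CPM. In rod-like cells 0 genes of these 8 lists passed 1.5-fold, for example the mitochondrial carrier Slc25a11 at 92.1 and 68.0 CPM. Only 4.40% of all measured genes were higher and 1.29% lower in that class, so 0 says little about these lists. Bsg in bipolar-like cells, at 1029 and 1819 CPM, and the glycogen phosphorylase Pygb in Müller glia-like cells, at 74.1 and 25.6 CPM, are given after their values had been seen.

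The clusters within microglia-like cells did not all carry the difference. Cluster 12, led by P2ry12 and Tmem119 (133 control and 116 OIR cells), had 16 of 27 genes higher (12.3% of all genes), 1 lower (15.4%) and a median of 0.71. Cluster 11, led by Rgs10 and Ctss (130 control and 109 OIR cells), had 13 of 21 higher (28.9%), 5 lower (18.7%) and a median of 0.87. Cluster 9, led by P2ry12 and Selplg (302 control and 22 OIR cells), had 10 of 22 higher (19.1%), 1 lower (19.3%) and a median of 0.44. Cluster 10, with the highest Tmem119 (248 control and 32 OIR cells), had 2 of 21 higher (20.7%), 4 lower (15.5%) and a median of -0.04. There the log2 ratio was -0.25 for Ldha, -0.05 for Eno1, -0.04 for Pkm, -0.96 for Slc2a1 and -0.88 for Pfkl, each with an interval that spans 0. Clusters 14, led by Mmp12, Hmox1 and Spp1 (15 control and 211 OIR cells), and 15, led by Hmox1 and Lgals3 (1 control and 90 OIR cells), were nearly all OIR, and their OIR cells gave 1.31% and 1.30% of UMIs to the 35 genes, against 0.414% in cluster 10. Without the 3 clusters of which at least 90% came from 1 library (9, 14 and 15), 18 of 27 genes were higher (14.4% of all genes) and the median was 1.02, with Pgk1 at 2.02, Ldha at 1.12, Slc2a1 at 0.59 and Slc2a3 at 0.95 (log2). Cluster 13 of border macrophage-like cells, led by Pf4 and Mrc1 (24 control and 83 OIR cells), had 5 of 21 genes higher (23.3%), 5 lower (30.3%) and a median of 0.11.

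In bipolar-like cells all 4 clusters that could be compared had 11 to 18 genes higher (6.33%, 12.3%, 17.5% and 20.1% of all genes in clusters 33, 20, 32 and 21) and medians from 0.46 to 0.83, and the summed share of the 35 genes was larger in OIR in all 5 clusters. In Müller glia-like cells the libraries shared few clusters. Cluster 31, led by Aqp4, held 184 control and 21 OIR cells, and cluster 35, led by Ndufa4l2 and Crym, held 3 control and 259 OIR cells. Within cluster 31, 3 of 23 genes were higher (15.0% of all genes, median -0.03), and within cluster 34 (65 control and 74 OIR cells) 0 of 23 (5.73%, median -0.10). Without cluster 35, 6 of 25 genes of the class were higher (8.98% of all genes) with a median of 0.07, and Tpi1 had a log2 ratio of -0.03. Aldoc (-1.29), Ldhb (-0.72), Slc16a1 (-0.79) and Slc16a3 (1.41) kept their direction. The clusters left still differed between the libraries. Most control cells were then in cluster 31 (184 cells, 8.71% rod RNA). Most OIR cells were in clusters 34 (74 cells, 75.2%) and 38 (77 cells, 90.6%). Leaving out cluster 35 thus does not separate these directions from cluster make-up and rod RNA. Rod RNA was estimated at 39.6% in control and 58.0% in OIR of the class, and Müller glia markers summed to 19283 CPM in control and 9819 CPM in OIR. Their part in these ratios was not tested beyond a subtraction of rod RNA, which left 15 of 25 genes higher (12.9% of all genes) and Aldoc at a log2 ratio of -1.05. In rod-like cells, leaving out cluster 7 (led by Edn2, 25 control and 1079 OIR cells) left Pfkp at 0.65 and the median at -0.01. The rod-like clusters differed in direction. The summed share was lower in OIR in clusters 0 to 6, as in cluster 0 (1.44% in control and 1.09% in OIR). It was higher in clusters 7 (1.12% and 1.36%) and 8 (1.92% and 2.10%). The median was -0.25 in cluster 0 (0.17 over all genes) and 0.30 in cluster 7 (-0.07).

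**Figure D4:**
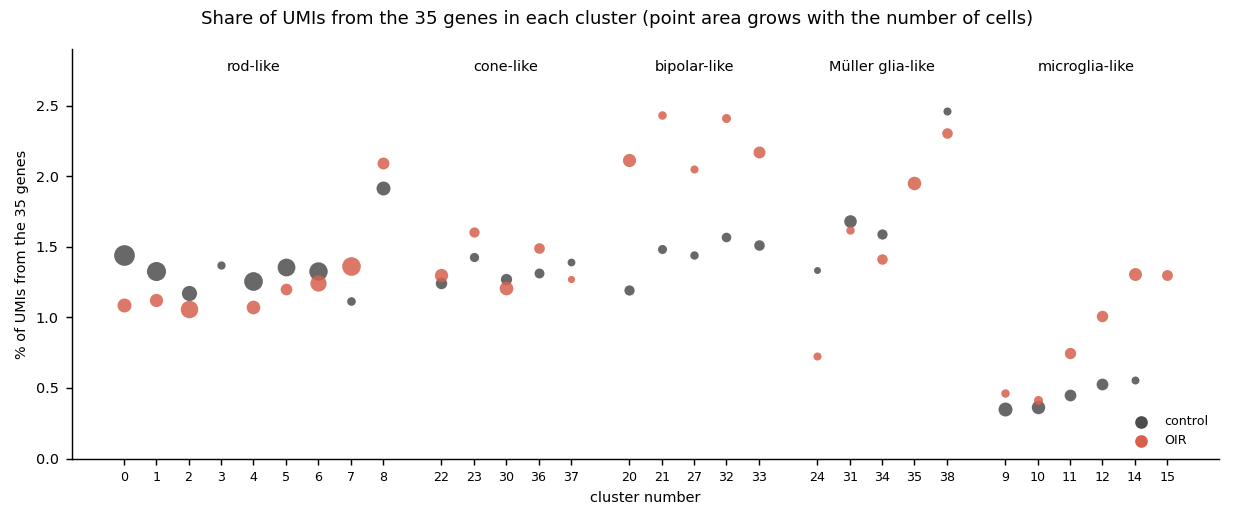
Percent of UMIs from the 35 genes (y axis) in each cluster (x axis), in control (grey) and OIR (red); point area grows with the number of cells, and groups under 5 cells are not drawn. All 5 bipolar-like clusters are higher in OIR, and the OIR points of microglia-like clusters run from 0.414% in cluster 10 to 1.31% in cluster 14.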

How the data were processed

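Single-cell UMI counts were deposited by the authors as raw count matrices, made with Cell Ranger 3.0.2 (per the file headers) against mm10 (per the submitters' processing notes). The annotation release was not given in the sources used here, nor was the cell calling. The 35 genes and the lists of other pathway genes were chosen with earlier results of these data known.

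Cells with at least 500 genes and at most 10% mitochondrial UMIs were kept. Scrublet's automatic threshold marked 0 control and 1 OIR barcodes, so the highest doublet scores were removed at 0.8% per 1000 barcodes (872 control and 380 OIR cells). Both libraries were clustered together in 2 rounds with scanpy 1.11.5 (2000 variable genes without the 35, 30 components, 20 neighbours, Leiden resolution 1), and clusters were named from the mean fold of marker genes. This procedure was settled after 3 others had been looked at, judged by markers and class make-up before values of the 35 genes were computed; those 3 are among the alternatives.

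UMIs were summed per class and library and divided by the class total. Ratios carry exact conditional binomial intervals, CPM Poisson intervals and shares Clopper-Pearson intervals. A sum of 0 was set to a floor of 3 counts, and no ratio is given where neither count exceeds 3. Genes with at least 50 CPM in 1 library of 1 class (26 of 35) are described in the classes where they were measured, the others more briefly. UMIs are not scaled by length, so levels are mainly compared between classes. Leading forms and isoform shares within a class compare genes by UMIs alone, without any correction between genes. Free rod RNA was estimated from rod markers. In simulated sums 50 of 50 genes set at 2-fold were called in both microglia-like and bipolar-like cells. Of unchanged genes, 1 of 5403 was called higher and 0 lower in microglia-like cells, and 23 of 6540 were called higher and 14 lower in bipolar-like cells. Of genes set at 0.5-fold, 50 of 50 and 49 of 50 were called. The simulated sums held counting error alone. They therefore do not measure calls that arise from differences in animals, libraries, cluster make-up or rod RNA. Near-identical copies counted separately held 0.135% as many UMIs as Eno1, 0.461% as many as Gapdh and 6.72% as many as Pfkfb2.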

Additional observations from a re-analysis of the deposited data

Results flagged for a closer look

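Aldoc differed in opposite directions in a pair of classes under the same contrast. Its log2 ratio of OIR over control was 0.79 in bipolar-like cells (216 and 373 CPM) and -1.26 in Müller glia-like cells (988 and 412 CPM), a difference of 2.049 between the log2 ratios. With 1 library per group this difference was not tested. Within Müller glia-like clusters 31 and 34 Aldoc was lower by less than in the class, as given above. The libraries shared few clusters of that class.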

How the results depend on the processing

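No paired analysis was possible because each group is 1 library. With 1 library per group none could be left out. Percents in parentheses after a count are the share of all measured genes that were higher under the same setting. Under all 13 alternatives run, bipolar-like cells had 10 to 14 genes at least 1.5-fold higher, of 21 to 32 measured, and a median log2 ratio of 0.38 to 0.68, where 3.57% to 12.6% of all genes were higher. The excess was smallest with a stricter cell filter, at 10 of 30 (12.6%), from 30 control cells, and with no minimum level, at 12 of 32 (12.2%). The number of genes in microglia-like cells stayed within 1.5 times of 17 under 16 of 17 alternatives; in the cluster highest in Tmem119 it was 2 of 21 (20.7%), with a median of -0.042 and log2 ratios of -0.96 for Slc2a1, -0.88 for Pfkl, -0.052 for Eno1, -0.042 for Pkm and -0.25 for Ldha, where 32 OIR cells limit the precision. The microglia-like median was 1.21 as a mean over cells, 0.89 with no minimum level, 1.77 with a minimum of 50 CPM, 0.97 with doublet calls kept, 1.03 at resolution 0.5 and 1.89 with rod RNA subtracted. Cells also changed class. At resolution 0.5 the OIR cells numbered 407 in the microglia-like class, against 580, and 228 in the neutrophil-like class, against 20. The median was 1.15 without the cluster highest in Mmp12. Of the alternatives chosen after seeing the data, it was 0.80 with 1 round of clustering, 1.02 without clusters of which at least 90% came from 1 library and 1.11 in the clusters with Tmem119 among their 3 leading genes, where 116 of 170 OIR cells belong to cluster 12.

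In Müller glia-like cells 4 of 26 (6.42%) genes were higher with doublet calls kept (median 0.23), where OIR cells numbered 263, against 447, and 248 OIR cells were unnamed, all in 1 cluster whose astrocyte score was just above its Müller glia score. The count was 6 of 25 (4.34%) with 1 round of clustering or with a second round without retinal cells (median 0.25 in both) and 6 of 25 (8.98%) without the cluster nearly all OIR (median 0.074), where Pfkp was at -0.051 and Tpi1 at -0.029. The median was 0.66 as a mean over cells, 0.66 with a stricter cell filter (31 control cells), 0.20 with the 35 genes allowed in the clustering (234 OIR cells), 0.86 with rod RNA subtracted and 0.86 without the deepest cluster. In rod-like cells 2 of 32 (18.8%) genes were higher with no minimum level, and the median was -0.14 as a mean over cells. In cone-like cells 3 of 32 (13.4%) were higher with no minimum level, 2 of 26 (5.57%) with a stricter filter of 47 control cells, 1 of 24 (2.73%) with doublet calls kept, 1 of 25 (2.69%) at resolution 0.5, 1 of 25 (4.04%) with 1 unscaled round and 6 of 22 (11.8%) with rod RNA subtracted (median 0.27). The rod markers gave 77.9% rod RNA in control cone-like cells, a value that genes shared by rods and cones can raise. With rod RNA subtracted, Hk2 in bipolar-like cells had a log2 ratio of 5.88. Before subtraction the control level was 16.6 CPM, from 39 UMIs, against 146 CPM in control rod-like cells. Little control Hk2 was left after subtraction, so this ratio is uncertain. Scaling by the median of ratios shifted microglia-like values by 0.12 in log2. The causes of these differences were not tested beyond the changes of class given.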
